A study of Mus musculus with 6 samples.

Results

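The 39 genes described here encode the steps of glycolysis, the enzymes that set its rate or its outlet, and the cellular response to low oxygen. They were chosen by gene symbol: a row of the deposited expression table belonged to the set when its symbol was 1 of the 39 names. All 39 symbols were found, in 40 of the table's 57180 gene rows, because Aldoa has 2 rows. The libraries compared came from GC-1 spg cells (an immortalised mouse line made from spermatogonia) whose genotype is labelled SNHG1 Overexpression, and from the same line labelled Vector Control, with 3 libraries in each group and collection 24 h after transfection. SNHG1 hosts small nucleolar RNAs in its introns, and its spliced transcript is a long non-coding RNA. All 6 libraries share the tissue label testis, the cell type label Germ Cell and the treatment label Non-obstructive azoospermia. The labels do not give the transfected SNHG1 sequence, and they do not say whether replicates were separate cultures, so all p-values refer to the spread among libraries, part of which may be technical.

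Glycolysis begins when glucose transporters bring glucose into the cell and hexokinases trap it by phosphorylation. Phosphofructokinase commits it to breakdown, a chain of shared enzymes yields pyruvate, and lactate dehydrogenase turns pyruvate into lactate, which leaves through monocarboxylate transporters. Pyruvate dehydrogenase kinases hold pyruvate back from the mitochondria. Hypoxia-inducible factor, whose oxygen-regulated subunit is encoded by Hif1a, is known to raise many of these genes at low oxygen, while the prolyl hydroxylases encoded by the Egln genes mark that subunit for destruction. In the testis, spermatogonia are known to rely on glycolysis, and later germ cells use their own isozymes.

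The libraries held between 15521900 and 21095427 counts, and 3 counts, the most that a count of 0 allows, stood for 0.142 to 0.193 CPM, the usual measure of a count relative to its library's total. CPM values of tested genes are scaled by the trimmed mean of M-values (TMM). Those of untested genes, the summaries of marker lists and the limits for a count of 0 are relative to total counts alone. Such limits cover counting error only. Snhg1, the gene named in the labels, had 24.0, 26.4 and 25.3 CPM in the SNHG1-labelled libraries and 22.1, 25.9 and 20.9 CPM in the vector libraries. The groups overlapped, with a log2 fold change of 0.14 ± 0.10 (SE) and an edgeR adjusted p of 0.52, so a rise of the endogenous row was not detected in the libraries labelled SNHG1 overexpression. SNHG1-labelled library 1 stood apart from the other two of its group, where chi-square divided by degrees of freedom over gene counts was 16.08 and 16.75 against them and the other pairs within a group ran from 10.65 to 11.88. Of 16 markers of spermatogonia and other germ cells, 15 were under 1 CPM in all 6 libraries and 8 were at 0, and their summed level was between 2.45 and 3.13 CPM in the SNHG1-labelled libraries and between 2.13 and 2.6 CPM in the vector libraries. The germ cell label is therefore not borne out by these markers. Summed markers of Sertoli cells stood between 611 and 712 CPM in the SNHG1-labelled libraries and between 586 and 622 CPM in the vector libraries. Most of this was Rhox5 (means of 594 and 533 CPM), 3 of the 8 markers had 0 counts in all libraries, and 0 were called. Summed markers of fibroblasts or mesenchymal cells, mostly collagens, stood between 18400 and 19200 CPM in the SNHG1-labelled libraries and between 21800 and 23200 CPM in the vector libraries, and 2 of the 7 fell while 1 rose. On the log2 scale Col1a2 fell by 0.30 ± 0.04 (SE, edgeR adjusted p = 0.00797) and Col3a1 by 0.52 ± 0.07 (0.0103), and Pdgfra rose by 0.47 ± 0.07 (0.0143). Of all genes tested, 1.54% were called higher and 0.856% lower at an edgeR adjusted p under 0.05. Summed markers of macrophages and other leukocytes stood between 42.2 and 48.7 CPM in the SNHG1-labelled libraries and between 33.8 and 34.7 CPM in the vector libraries. Of these 10 markers 1 rose, Cd14, at 22.0, 25.0 and 26.1 CPM in the SNHG1-labelled libraries and 14.9, 14.65 and 13.7 CPM in the vector libraries (edgeR adjusted p = 0.00728), and 6 were under 1 CPM in all libraries. Cd68 was also higher without overlap of the groups, at 3.70, 3.75 and 4.05 CPM in the SNHG1-labelled libraries and 2.525, 2.71 and 2.17 CPM in the vector libraries, but did not pass. Csf1r was lower without overlap and did not pass (1.03, 0.950 and 1.14 CPM in the SNHG1-labelled libraries and 1.43, 1.355 and 1.52 CPM in the vector libraries). Adgre1 was also lower without overlap, but had only 5, 3 and 2 counts in the SNHG1-labelled libraries and 6, 7 and 5 in the vector libraries, and was not tested. Without overlap, 11.4% of all genes tested were higher and 12.3% lower. Ptprc, the defining leukocyte marker, had 0.359, 0.427 and 0.104 CPM in the SNHG1-labelled libraries and 0.0948, 0.193 and 0.108 CPM in the vector libraries. Lyz2, a large part of the leukocyte sum, had 14.5, 14.8 and 16.7 CPM in the SNHG1-labelled libraries and 14.5, 14.9 and 16.7 CPM in the vector libraries (log2 fold change -0.003 ± 0.10, SE). The part of any of these marker lists in the results on glycolysis was not tested. In such bulk samples fewer cells of a type and less RNA per cell cannot be told apart.

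In the SNHG1-labelled libraries the glucose transporter Slc2a1, the glycolytic enzymes Pfkl, Tpi1, Pgk1 and Ldha, the lactate exporter Slc16a1 and the kinase Pdk1 were higher by 1.19 to 1.42-fold. Of the 36 rows that passed the filter on low counts, these 7 rose and 0 fell at an adjusted p under 0.05 (edgeR's quasi-likelihood test, Benjamini-Hochberg adjustment over all 14605 genes tested). This is 19.4% of the rows, against 1.54% of all genes tested called higher and 0.856% called lower. The members were chosen with earlier results of these data known, so such shares are descriptions and not a test of the set. At an unadjusted p under 0.05, 15 rows were higher and 1 was lower, against 8.26% and 8.71% of all genes. The lowest SNHG1-labelled library lay above the highest vector library in 17 rows (11.4% of all genes), and the reverse held in 2 rows (12.3% of all genes). The median log2 fold change was 0.16 over the 36 rows and 0.0065 over all genes, and the rows spanned -0.24 to 0.70. DESeq2 called 11 of the 36 rows higher and limma-voom called 8, and neither called any lower. The count depended on single libraries. It was 10 without SNHG1-labelled library 1, 2 without library 2 (Ldha and Pfkl) and 3 without library 3 (Ldha, Pfkl and Slc16a1), and it was 0 without vector library 1, 1 without vector library 2 (Pfkl) and 1 without vector library 3 (Pfkl). All 7 kept a positive fold change in each of these fits.

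**Figure D1:**
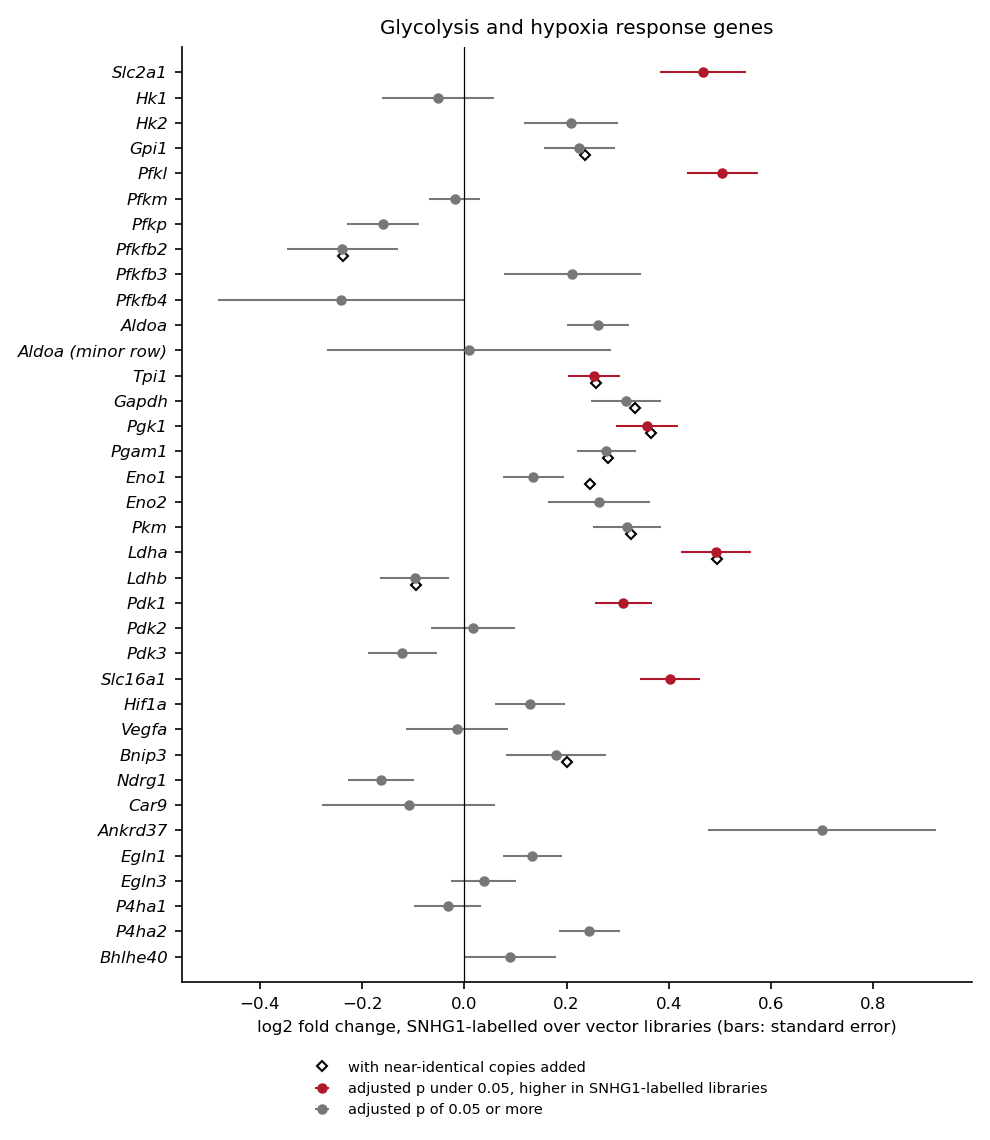
Log2 fold change of the SNHG1-labelled over the vector libraries for each of the 36 tested rows, in order of their place in the pathway, with bars for the standard error and n = 3 libraries per group. Red points (7 rows) have an edgeR adjusted p under 0.05, and diamonds give the value after the counts of near-identical gene copies were added; the enzymes from Gpi1 to Ldha sit mostly right of 0 and the hypoxia genes on both sides of it.

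Counted by role, most calls were of transporters and glycolytic enzymes. Of the 19 tested rows of 21 such genes, 6 rose and 0 fell, 12 had an SNHG1-labelled group wholly above the vector group, and the median log2 fold change was 0.26. The 7 regulatory enzymes (6 rows tested) had 1 rise, of Pdk1, and a median of -0.05. In 1 of these rows the SNHG1-labelled libraries lay wholly above the vector libraries, and in 2 wholly below. None of the 11 genes of oxygen sensing and hypoxia response passed with edgeR, and their median was 0.09; at an unadjusted p under 0.05, 2 were higher and 1 was lower, and DESeq2 and limma-voom also called 0. Without overlap of the groups, 4 of the 11 were higher in the SNHG1-labelled libraries and 0 were lower. Of all genes tested, 11.4% were higher and 12.3% lower in this way. With 1.54% of all genes called higher, a count of 0 calls among 11 does not set the hypoxia genes apart from the rest. The difference between these sets was not tested. Summed over the 17 tested rows of the glycolytic enzymes, transporters left out, the level was 7860, 8678 and 8387 CPM in the SNHG1-labelled libraries and 6738, 6641 and 6944 CPM in the vector libraries. The vector libraries lay close together, and SNHG1-labelled library 1 was the lowest of its group. This sum leaves out the rows of near-identical gene copies described below. Such copies held 97.4 to 97.7% of the Gapdh counts and 86.8 to 90.0% of the Eno1 counts of gene and copies together.

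At the entry to the pathway, Slc2a1 (ENSMUSG00000028645, chromosome 4, 118965908 to 118995180, in the deposited table's own coordinates, whose build is not named), the widely expressed glucose transporter GLUT1, had 107, 121 and 116.5 CPM in the SNHG1-labelled libraries and 86.0, 73.8 and 89.1 CPM in the vector libraries. Every SNHG1-labelled library lay above every vector library, with a log2 fold change of 0.47 ± 0.08 (SE, 1.38-fold) and an edgeR adjusted p of 0.0305. Pfkl (ENSMUSG00000020277, chromosome 10, 77822781 to 77845917), the liver-type subunit of phosphofructokinase, stood at 282.5, 313 and 295 CPM in the SNHG1-labelled libraries and 216, 193 and 219 CPM in the vector libraries. It had the largest log2 fold change of the called members, 0.50 ± 0.07 (SE, 1.42-fold, edgeR adjusted p = 0.0112), and kept its call in 5 of the 6 fits that left out 1 library, with an adjusted p of 0.0528 without vector library 1. Tpi1 (ENSMUSG00000023456, chromosome 6, 124787549 to 124791259), which interconverts the triose phosphates made by aldolase, was measured at 499, 519 and 530.5 CPM in the SNHG1-labelled libraries and 420.5, 445 and 433 CPM in the vector libraries. The groups did not overlap, but the log2 fold change of 0.25 ± 0.05 (SE) was the smallest of the called members, and the edgeR adjusted p of 0.0469 was close to the threshold. Pgk1 (ENSMUSG00000062070, chromosome X, 105230706 to 105247305), phosphoglycerate kinase and the first step that yields ATP, had 554, 627 and 623 CPM in the SNHG1-labelled libraries and 474, 472 and 463 CPM in the vector libraries. The vector libraries differed little among themselves, and the log2 fold change was 0.36 ± 0.06 (SE, edgeR adjusted p = 0.024). Slc2a1, Tpi1 and Pgk1 each passed in 1 of the 6 fits that left out a library, the one without SNHG1-labelled library 1. In the others the adjusted p was 0.069 to 0.116 for Slc2a1, 0.13 to 0.175 for Tpi1 and 0.0867 to 0.126 for Pgk1.

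At the outlet, Ldha (ENSMUSG00000063229, chromosome 7, 46490899 to 46505051), the muscle-type lactate dehydrogenase subunit that favours lactate, stood at 713, 842 and 818 CPM in the SNHG1-labelled libraries and 564, 561 and 562 CPM in the vector libraries. All 3 vector libraries lay within a few CPM of each other and below every SNHG1-labelled library, with a log2 fold change of 0.49 ± 0.07 (SE, 1.41-fold) and an edgeR adjusted p of 0.0112. Slc16a1 (ENSMUSG00000032902, chromosome 3, 104545984 to 104565778), the monocarboxylate transporter MCT1 that carries lactate and pyruvate across the plasma membrane, had 138, 143.5 and 131 CPM in the SNHG1-labelled libraries and 107, 106 and 99.9 CPM in the vector libraries. Its groups did not overlap, and the log2 fold change was 0.40 ± 0.06 (SE, 1.32-fold, edgeR adjusted p = 0.0141). Pdk1 (ENSMUSG00000006494, chromosome 2, 71703568 to 71734202), a kinase that switches off pyruvate dehydrogenase, stood at 89.25, 83.9 and 84.2 CPM in the SNHG1-labelled libraries and 67.0, 70.7 and 69.8 CPM in the vector libraries. Here too the SNHG1-labelled libraries were all higher, by a log2 fold change of 0.31 ± 0.06 (SE, edgeR adjusted p = 0.0308). Ldha lost its call without vector library 1, 2 or 3 (adjusted p 0.0634, 0.0645 and 0.0647). Slc16a1 lost it without SNHG1-labelled library 2 (0.0568) or vector library 1, 2 or 3 (0.0624, 0.065 and 0.069). Pdk1 kept it only without SNHG1-labelled library 1 and otherwise ran from 0.0867 to 0.134.

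**Figure D2:**
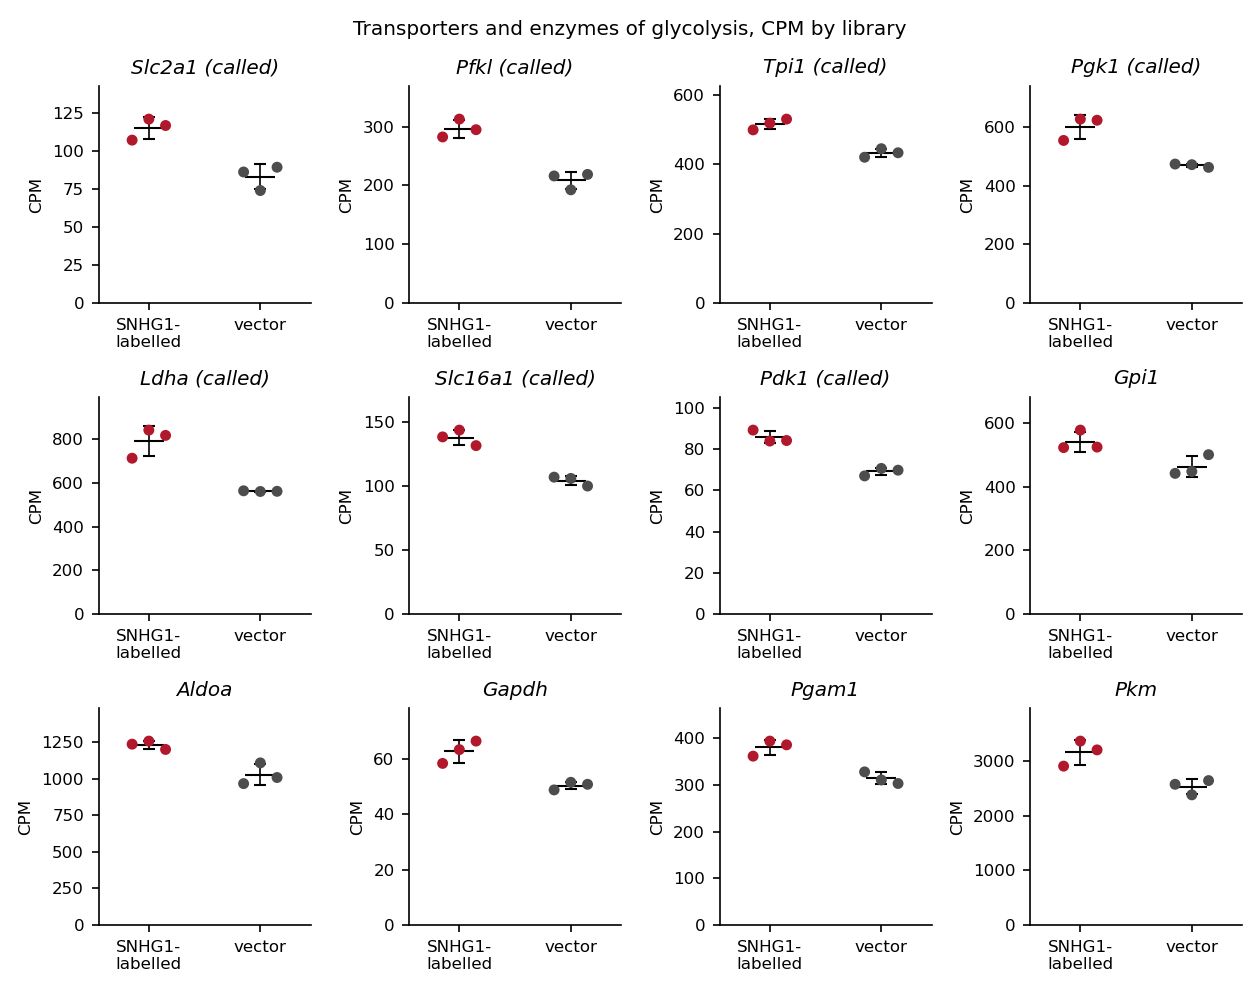
TMM-scaled CPM in each library for the 7 called members and for the 5 glycolytic enzymes with an unadjusted p under 0.05 and no overlap of the groups; points are libraries, the wide line is the mean, error bars are the SD (n = 3), and each axis starts at 0. In every panel the 3 SNHG1-labelled points lie above the 3 vector points.

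The promoters of 4 called members are shown because they range from many to few core letters of the hypoxia response element, the sequence that hypoxia-inducible factor is known to bind. Each run holds 300 bases, from 250 before to 50 after a RefSeq transcript start, in build GRCm38.p6 and on the strand of the gene. Capitals mark the core letters ACGTG or GCGTG, read on either strand; ACGTG read on the other strand is CACGT, and the palindrome CACGTG holds ACGTG on both strands. The promoters lie at chr7:46845554-46845853 (plus strand) for Ldha, chr3:104638414-104638713 (plus) for Slc16a1, chrX:106186850-106187149 (plus) for Pgk1 and chr10:78009758-78010057 (minus) for Pfkl.
Ldha: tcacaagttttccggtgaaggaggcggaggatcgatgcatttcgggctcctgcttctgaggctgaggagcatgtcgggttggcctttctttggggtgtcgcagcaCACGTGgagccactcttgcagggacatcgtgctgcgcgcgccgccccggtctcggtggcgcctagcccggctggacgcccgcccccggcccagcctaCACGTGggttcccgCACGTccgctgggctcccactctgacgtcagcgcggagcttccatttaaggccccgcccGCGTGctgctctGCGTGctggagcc
Slc16a1: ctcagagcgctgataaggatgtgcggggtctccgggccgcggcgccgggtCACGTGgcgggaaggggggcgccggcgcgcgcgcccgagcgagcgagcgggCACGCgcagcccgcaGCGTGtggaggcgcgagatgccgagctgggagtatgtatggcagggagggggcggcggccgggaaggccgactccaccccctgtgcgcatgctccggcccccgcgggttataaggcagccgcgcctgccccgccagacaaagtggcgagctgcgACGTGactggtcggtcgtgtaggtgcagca
Pgk1: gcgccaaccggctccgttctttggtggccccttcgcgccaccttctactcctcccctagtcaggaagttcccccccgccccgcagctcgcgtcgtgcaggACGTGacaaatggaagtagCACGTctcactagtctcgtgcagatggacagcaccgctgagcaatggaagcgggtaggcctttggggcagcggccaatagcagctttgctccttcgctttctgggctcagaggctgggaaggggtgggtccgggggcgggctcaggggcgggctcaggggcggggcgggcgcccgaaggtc
Pfkl: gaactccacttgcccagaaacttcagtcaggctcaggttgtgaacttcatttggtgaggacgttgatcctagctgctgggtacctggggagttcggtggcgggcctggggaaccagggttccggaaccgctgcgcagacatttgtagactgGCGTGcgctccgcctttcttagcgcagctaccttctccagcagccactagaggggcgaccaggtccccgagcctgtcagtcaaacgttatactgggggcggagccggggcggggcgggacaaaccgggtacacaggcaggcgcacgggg
The Ldha promoter held 5 matches to ACGTG and 2 to GCGTG in 5 places, the Slc16a1 promoter 3 and 2 in 4 places, the Pgk1 promoter 2 and 0, and the Pfkl promoter 0 and 1. Of the other called members, Slc2a1 had 1 and 1, Pdk1 had 0 and 2 in its first promoter and none in its second, a second Ldha promoter had 0 and 2, and Tpi1 had none. These letters are common: 43.8% of the 32851 promoters in the RefSeq table held a match, as did 63.8% of the 14253 with at least 55% GC and 61.7% of those of the tested genes. The table held 53 promoters of 36 members, and Bhlhe40, Slc2a3 and Ndrg1 were not matched. Of these 53, 43 (81.1%) held a match, with a median GC content of 62.0% against 52.7% for all promoters. The share was 77.8% of the 9 promoters of members that rose and 81.8% of the 44 promoters of the other members, and for ACGTG alone it was 44.4% and 59.1%, against 19.6% of all promoters, 25.4% of those with at least 55% GC and 25.5% of those of tested genes. The letters were thus no more frequent in the promoters of the members that rose than in those of the others, and a match is only a description of the sequence.

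Several enzymes between these called steps had an unadjusted p under 0.05 but did not pass the adjustment. Gpi1, which converts glucose 6-phosphate to fructose 6-phosphate, had 522, 577 and 524 CPM in the SNHG1-labelled libraries and 441, 447 and 500 CPM in the vector libraries. The groups did not overlap, and the log2 fold change was 0.23 ± 0.07 (SE, edgeR adjusted p = 0.158). Aldoa, the main aldolase, stood at 1237, 1258 and 1201 CPM in the SNHG1-labelled libraries and 967, 1109 and 1009 CPM in the vector libraries, again with no overlap. Its log2 fold change was 0.26 ± 0.06 (SE, edgeR adjusted p = 0.0752). The second Aldoa row (ENSMUSG00000114515) had 23 to 42 counts per library and a log2 fold change of 0.01 ± 0.28. Pgam1, phosphoglycerate mutase, was measured at 361.5, 394 and 386 CPM in the SNHG1-labelled libraries and 328, 310.5 and 303 CPM in the vector libraries. It missed the threshold narrowly, with a log2 fold change of 0.28 ± 0.06 (SE, edgeR adjusted p = 0.0545).

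Pkm, the pyruvate kinase of most tissues, stood at 2910, 3368 and 3207 CPM in the SNHG1-labelled libraries and 2577, 2384 and 2645 CPM in the vector libraries. The groups did not overlap, and the log2 fold change of 0.32 ± 0.07 (SE) came with an edgeR adjusted p of 0.0544. Gapdh, which oxidises glyceraldehyde 3-phosphate, had 58.5, 63.5 and 66.5 CPM in the SNHG1-labelled libraries and 48.9, 51.6 and 50.9 CPM in the vector libraries in its own row. That row separated the groups, with a log2 fold change of 0.32 ± 0.07 (SE, edgeR adjusted p = 0.0592). Eno2, the neuronal enolase, had 82.0, 63.1 and 70.5 CPM in the SNHG1-labelled libraries and 56.2, 60.15 and 63.2 CPM in the vector libraries, with SNHG1-labelled library 2 inside the vector range. Its log2 fold change was 0.26 ± 0.10 (SE, edgeR adjusted p = 0.237). Eno1, the main enolase, had 173, 188 and 193 CPM in the SNHG1-labelled libraries and 171.5, 165 and 169 CPM in the vector libraries and a log2 fold change of 0.13 ± 0.06 (SE, edgeR adjusted p = 0.3). Pgam1, Pkm, Gapdh and Aldoa passed with DESeq2 on the same counts, at a higher overall number of calls (646 genes against 350).

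For Gapdh and Eno1 most counts lay outside the row that carries the gene's name, and for Pgk1 and Pgam1 a sizeable share did. Rows whose GENCODE M21 transcript matched a member's longest protein-coding transcript at 95% identity or more over 300 bases or more were taken as near-identical copies, a criterion set after the data were seen. There were 95 such rows, for 11 members, and reads of a gene and of such a copy cannot be told apart where the sequence is the same. For Gapdh, 76 copy rows, most of them annotated as processed pseudogenes, held 97.4 to 97.7% of the counts of gene and copies together. For Eno1 the share was 86.8 to 90.0%, chiefly in Eno1b and Gm4735. Pgk1 had 44.4 to 45.4% in its copies, chiefly Pgk1-rs7, and Pgam1 had 31.3 to 34.4%, in Pgam1-ps2. The share was 25.5 to 27.3% for Ldhb, 8.51 to 11.4% for Bnip3, 8.09 to 9.21% for Pkm and 7.05 to 8.86% for Gpi1. It was 0.976 to 1.52% for Tpi1, 0.758 to 0.989% for Ldha and at most 0.275% for Pfkfb2, so the calls of Tpi1 and Ldha do not turn on the copies. No copy was found by this criterion for Slc2a1, Pfkl, Slc16a1 or Pdk1. The sources used here do not give whether a read could be counted in more than 1 row.

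With the copies added, the families kept the direction of the named rows. Gapdh with its copies had 2301, 2715 and 2698 CPM in the SNHG1-labelled libraries and 2008, 2009 and 2102 CPM in the vector libraries. The groups stayed apart, with a log2 fold change of 0.33 ± 0.07 (SE, edgeR adjusted p = 0.0535), close to the 0.32 of the named row. Pgk1 with its copies had 1016, 1142 and 1123 CPM in the SNHG1-labelled libraries and 866, 849 and 832 CPM in the vector libraries. Its log2 fold change was 0.36 ± 0.06 (SE, edgeR adjusted p = 0.018). Pgam1 with its copy reached 551, 581 and 563 CPM in the SNHG1-labelled libraries and 483, 452 and 459 CPM in the vector libraries. On this sum the rise passed, with a log2 fold change of 0.28 ± 0.05 (SE, edgeR adjusted p = 0.0322). Pkm with its copy Gm6560 stood at 3189, 3673 and 3533 CPM in the SNHG1-labelled libraries and 2810, 2601 and 2877 CPM in the vector libraries. It passed as well, at a log2 fold change of 0.33 ± 0.07 (SE, edgeR adjusted p = 0.046), which brought the number of members called from 7 to 9. Eno1 with its copies had 1380, 1882 and 1744 CPM in the SNHG1-labelled libraries and 1518, 1423 and 1283 CPM in the vector libraries. SNHG1-labelled library 1 lay inside the vector range, and the log2 fold change was 0.25 ± 0.11 (SE, edgeR adjusted p = 0.322). Most of that spread lay in 1 row, Eno1b, which had 273, 667 and 605 CPM in the SNHG1-labelled libraries and 519, 489 and 254 CPM in the vector libraries. Of the copy rows taken alone, Gm13394 (a copy of Gapdh) rose by 0.28 ± 0.05 (SE, edgeR adjusted p = 0.0434) and Pgk1-rs7 by 0.37 ± 0.06 (adjusted p = 0.0183) on the log2 scale. Gm6560 rose by 0.41 ± 0.07 (adjusted p = 0.0224) and Gpi-ps by 0.36 ± 0.07 (adjusted p = 0.0302). Of all genes tested, 1.54% were called higher. Other copy rows with many counts did not pass. Among these, Gm12070 was at 0.37 ± 0.10 (edgeR adjusted p = 0.105), Gm5559 at 0.38 ± 0.09 (0.0873) and Gm4735 at 0.24 ± 0.06 (0.103). Pgam1-ps2 was at 0.29 ± 0.06 (0.0572) and Ldhb-ps at -0.09 ± 0.08 (0.578).

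**Figure D3:**
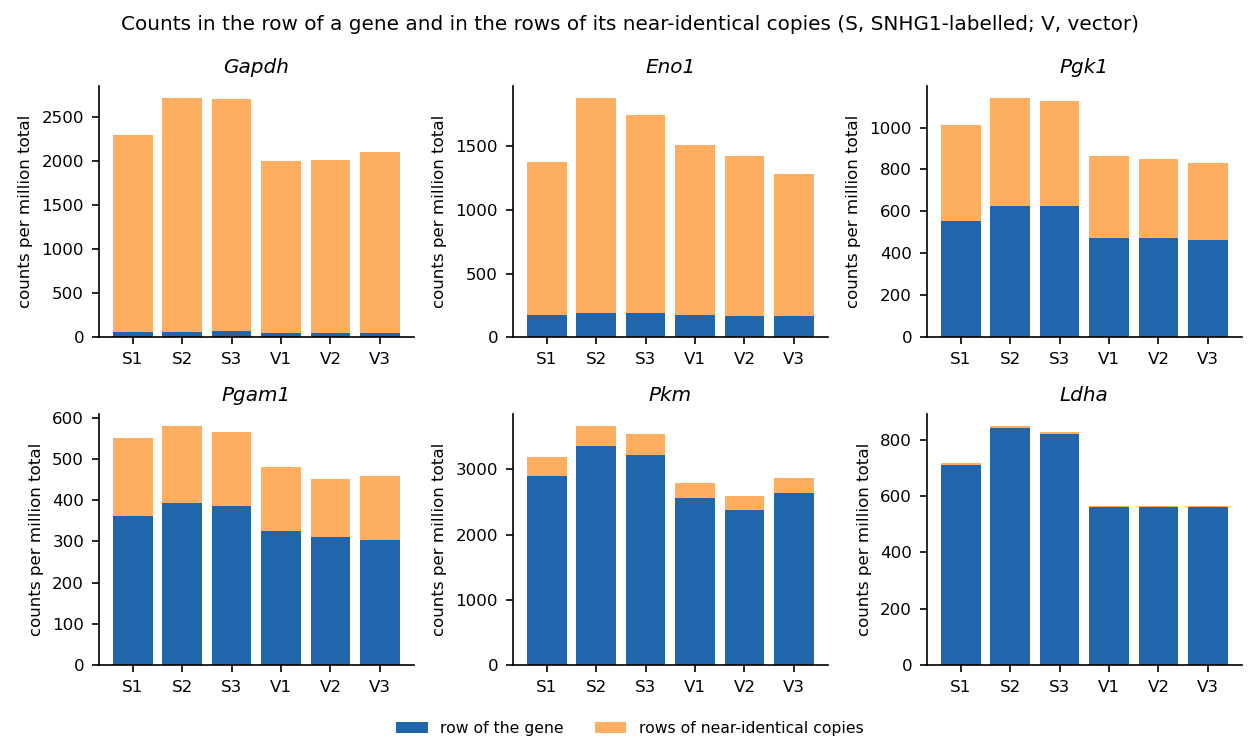
CPM in each library (S1 to S3, SNHG1-labelled; V1 to V3, vector) for 6 enzymes, with the row of the gene in blue and the sum of its near-identical copy rows stacked on it in orange. Nearly all of the Gapdh and Eno1 counts lie in the copy rows, about as much of Pgk1 lies in the copies as in the gene, and Ldha lies almost wholly in its own row.

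The order of levels between the enzymes differed with and without the copies. Per kb of the longest protein-coding transcript, the named rows ran from Pkm at 1300 CPM per kb in the SNHG1-labelled libraries and 1040 CPM per kb in the vector libraries, over Aldoa at 796 CPM per kb in the SNHG1-labelled libraries and 664 CPM per kb in the vector libraries, to Ldha at 436 CPM per kb in the SNHG1-labelled libraries and 310 CPM per kb in the vector libraries. Tpi1 stood at 321 CPM per kb in the SNHG1-labelled libraries and 269 CPM per kb in the vector libraries, and Pfkl, the lowest of the called enzymes of the chain, at 79.6 CPM per kb in the SNHG1-labelled libraries and 56.1 CPM per kb in the vector libraries. The named Gapdh row reached only 44.2 CPM per kb in the SNHG1-labelled libraries and 35.5 CPM per kb in the vector libraries. With copies added, Gapdh headed the order at 1810 CPM per kb in the SNHG1-labelled libraries and 1440 CPM per kb in the vector libraries, Pkm followed at 1420 CPM per kb in the SNHG1-labelled libraries and 1140 CPM per kb in the vector libraries, and Eno1 stood at 823 CPM per kb in the SNHG1-labelled libraries and 695 CPM per kb in the vector libraries. These are levels, not differences between groups, and a length taken from 1 transcript is an approximation.

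Where several isozymes carry out 1 step, the share of each was compared as well. Per kb of transcript, Pfkl made up 58.3, 60.8 and 59.2% of phosphofructokinase transcripts (Pfkl, Pfkm and Pfkp together) in the SNHG1-labelled libraries, and 50.4, 48.7 and 49.9% in the vector libraries. Pfkm, the muscle form, had 105.5, 104 and 107.5 CPM in the SNHG1-labelled libraries and 107, 105 and 109 CPM in the vector libraries (log2 fold change -0.02 ± 0.05, adjusted p = 0.88). Pfkp, the platelet form, had 72.75, 74.7 and 71.2 CPM in the SNHG1-labelled libraries and 82.3, 74.4 and 87.5 CPM in the vector libraries (-0.16 ± 0.07, adjusted p = 0.301). Ldha made up 90.4, 91.8 and 90.6% of Ldha and Ldhb together in the SNHG1-labelled libraries, and 87.1, 87 and 86.8% in the vector libraries. Ldhb, the heart-type subunit, had 54.6, 53.9 and 61.1 CPM in the SNHG1-labelled libraries and 60.0, 59.95 and 61.3 CPM in the vector libraries, with overlapping groups and a log2 fold change of -0.10 ± 0.07 (SE, edgeR adjusted p = 0.501). Pdk1 accounted for 36.4, 34.3 and 33.6% of Pdk1, Pdk2 and Pdk3 together in the SNHG1-labelled libraries, and 27.8, 30.1 and 28.9% in the vector libraries. These shares did not overlap between the groups. The mean log2 ratio of the isozyme to the others was higher in the SNHG1-labelled libraries by 0.57 for Pfkl, 0.59 for Ldha and 0.39 for Pdk1. An exact two-sided permutation test gave p = 0.1 for each (0.133 after adjustment over 4 ratios), and 0.1 is the smallest p that 3 against 3 libraries allow. The ratios were chosen after the gene values were seen.

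The hexokinases, which trap glucose, did not show such a separation. Hk1 had 188.5, 179.6 and 178 CPM in the SNHG1-labelled libraries and 179, 163 and 224 CPM in the vector libraries. Vector library 3 was the highest of all 6, and the log2 fold change was -0.05 ± 0.11 (SE, edgeR adjusted p = 0.838). Hk2, the hypoxia-inducible hexokinase, had 43.3, 51.6 and 53.05 CPM in the SNHG1-labelled libraries and 43.0, 39.9 and 45.1 CPM in the vector libraries, with overlapping groups. Its log2 fold change was 0.21 ± 0.09 (SE, edgeR adjusted p = 0.303). Hk2 made up 15.1, 18.2 and 18.8% of the pair per kb in the SNHG1-labelled libraries, and 15.7, 16 and 13.5% in the vector libraries. The mean log2 ratio differed by 0.24, with an exact two-sided permutation p of 0.3 (0.3 after adjustment over the 4 ratios).

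**Figure D4:**
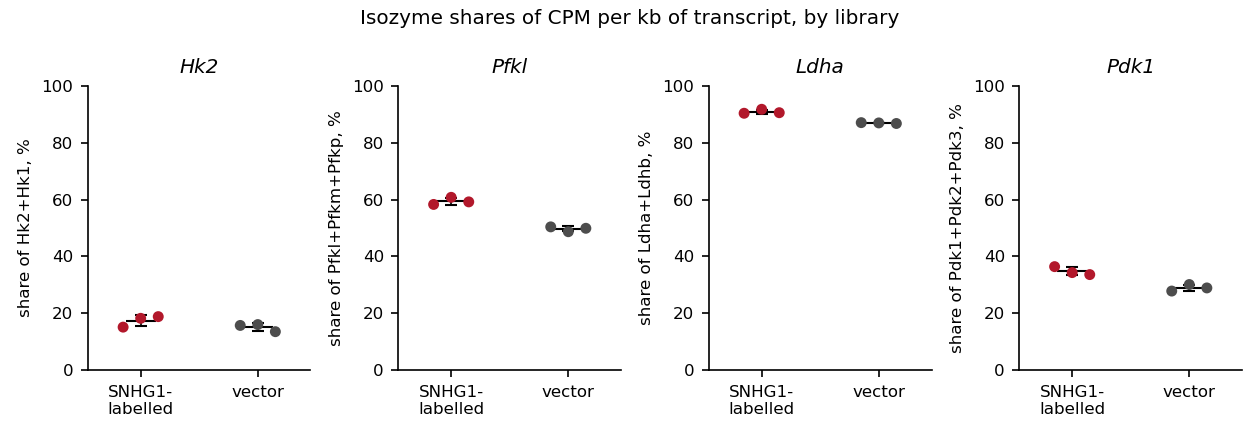
Share in percent of CPM per kb held by Hk2, Pfkl, Ldha and Pdk1 among the isozymes named on each axis, by library; points are libraries, the wide line is the mean and error bars are the SD (n = 3). Pfkl stands at 58.3 to 60.8% in the SNHG1-labelled libraries, against 48.7 to 50.4% in the vector libraries, whereas the Hk2 shares of the groups overlap.

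The remaining regulatory enzymes gave small values on both sides of 0. Pfkfb2, Pfkfb3 and Pfkfb4 make or remove the activator of phosphofructokinase. Their log2 fold changes were -0.24 ± 0.11, 0.21 ± 0.13 and -0.24 ± 0.24 (SE, edgeR adjusted p = 0.312, 0.464 and 0.641), and no library held more than the 21.4 CPM of Pfkfb2 in vector library 2. Pfkfb2 was lower in every SNHG1-labelled library than in any vector library, as was Pdk3. Pdk3 had 43.0, 46.7 and 47.9 CPM in the SNHG1-labelled libraries and 51.3, 48.3 and 50.1 CPM in the vector libraries, with a log2 fold change of -0.12 ± 0.07 (SE, edgeR adjusted p = 0.396), and Pdk2 was at 0.02 ± 0.08 (adjusted p = 0.933). The members that did not enter the test were nearly silent. Pdk4, a fasting-induced kinase, had 0 counts in all 6 libraries. Slc2a3, a neuronal glucose transporter, had 2 counts in SNHG1-labelled library 3 and 0 in the others. Slc16a3, the lactate exporter of highly glycolytic tissues, had 2 counts in SNHG1-labelled library 2 and 2 in vector library 2, and Aldoc, the brain aldolase, had 3 to 11 counts per library. Glucose entry and lactate export were thus represented among the members by Slc2a1 and Slc16a1 alone.

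Hif1a, the oxygen-regulated subunit itself, had 305, 270.1 and 279 CPM in the SNHG1-labelled libraries and 269.6, 268 and 243 CPM in the vector libraries. The lowest SNHG1-labelled library lay just above the highest vector library, and the log2 fold change was 0.13 ± 0.07 (SE, edgeR adjusted p = 0.379). Hif1a passed in 1 of 16 alternative fits, the edgeR fit with GC and length trends removed (adjusted p = 0.0392). Egln3, a prolyl hydroxylase that is also a hypoxia target, had 162, 176 and 155 CPM in the SNHG1-labelled libraries and 158, 165 and 157 CPM in the vector libraries. Its groups overlapped, with a log2 fold change of 0.04 ± 0.06 (SE, edgeR adjusted p = 0.79). Egln1, the main oxygen-sensing hydroxylase, was at 0.13 ± 0.06 (SE, edgeR adjusted p = 0.296), without overlap of the groups.

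The members that rose include known targets of hypoxia-inducible factor, for example Slc2a1, Ldha, Pgk1 and Pdk1, and these examples are not a complete list. The genes counted here under oxygen sensing and hypoxia response are those outside glycolysis and its regulation. None of these 11 passed in the main edgeR fit. Vegfa, the angiogenic growth factor, had 52.15, 49.1 and 46.5 CPM in the SNHG1-labelled libraries and 42.6, 54.2 and 52.5 CPM in the vector libraries. The groups overlapped fully, at a log2 fold change of -0.01 ± 0.10 (SE, edgeR adjusted p = 0.956). Ndrg1, a stress-responsive gene strongly raised in hypoxia, had 563, 514 and 492 CPM in the SNHG1-labelled libraries and 561, 605 and 591 CPM in the vector libraries. SNHG1-labelled library 1 lay inside the vector range, and the log2 fold change was -0.16 ± 0.06 (SE, edgeR adjusted p = 0.251). P4ha2, a subunit of collagen prolyl hydroxylase, had 81.95, 76.4 and 76.8 CPM in the SNHG1-labelled libraries and 67.6, 63.4 and 67.5 CPM in the vector libraries. It was higher in every SNHG1-labelled library but did not pass, with a log2 fold change of 0.24 ± 0.06 (SE, edgeR adjusted p = 0.0881). Ankrd37, a hypoxia-induced ankyrin repeat gene, had few counts, at 1.44, 1.71 and 1.765 CPM in the SNHG1-labelled libraries and 0.953, 1.16 and 0.923 CPM in the vector libraries. Its log2 fold change was the largest of all members, 0.70 ± 0.22 (SE, edgeR adjusted p = 0.172), with a correspondingly large error. The mitophagy receptor Bnip3 was at 0.18 ± 0.10 (adjusted p = 0.39), the carbonic anhydrase Car9 at -0.11 ± 0.17 (0.774), P4ha1 at -0.03 ± 0.07 (0.828) and the transcriptional repressor Bhlhe40 at 0.09 ± 0.09 (0.647), all on the log2 scale with SE and with overlapping groups. An adjusted p above the threshold does not show that these genes were the same in both groups.

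**Figure D5:**
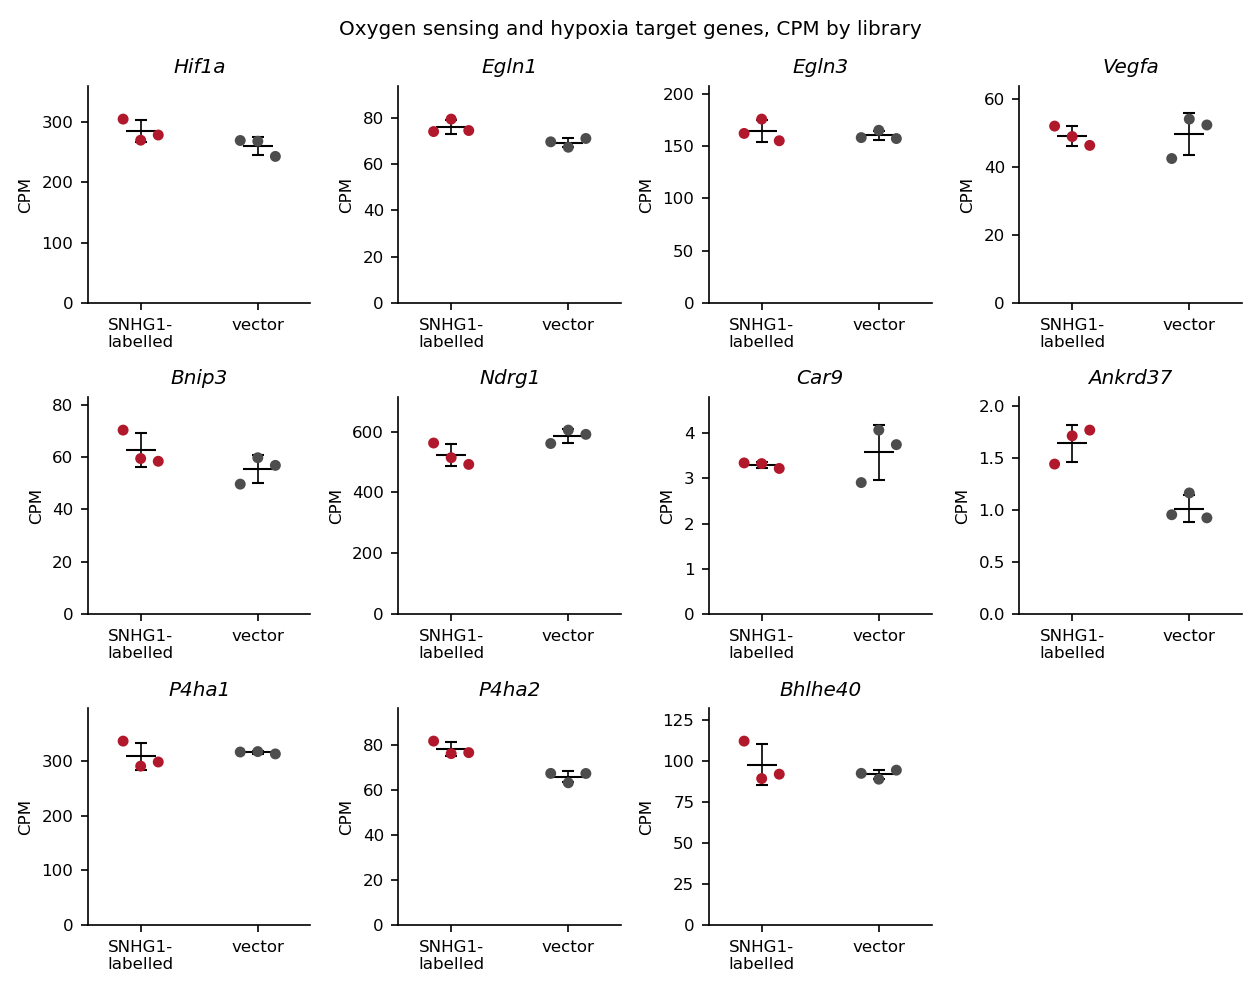
TMM-scaled CPM in each library for the 11 genes of oxygen sensing and hypoxia response; points are libraries, the wide line is the mean, error bars are the SD (n = 3), and each axis starts at 0. The groups overlap in most panels, with Hif1a, Egln1, P4ha2 and Ankrd37 wholly higher in the SNHG1-labelled libraries.

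Fold changes across the whole table moved with base composition and length, so the members were measured against that trend. Among 8194 genes at 20 CPM or more, the Spearman rho of the log2 fold change was 0.388 with GC content and -0.285 with transcript length, across genes that are not independent replicates. The tested members had a median GC content of 52.9% and a median length of 2.84 kb, against 49.9% and 2.75 kb for all genes tested. With per-library trends on both removed, all 7 calls held. The log2 fold change was then 0.43 for Slc2a1, 0.45 for Pfkl, 0.19 for Tpi1, 0.33 for Pgk1, 0.45 for Ldha, 0.49 for Slc16a1 and 0.36 for Pdk1. Pkm also passed in that fit at 0.24 (edgeR adjusted p = 0.045), and so did Hif1a at 0.24 ± 0.05 (SE, adjusted p = 0.0392). Gapdh stood at 0.22 (adjusted p = 0.0762), Pgam1 at 0.22 (0.0713) and Aldoa at 0.17 (0.233). GC content and length were first taken from the longest transcript of any kind and, after the values were seen, from the longest protein-coding one; in the earlier form Tpi1 (adjusted p = 0.0542) and Hif1a (adjusted p = 0.0557) did not pass, and the other 6 calls held.

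Genes next to these in metabolism were taken from 6 lists of pathway genes, of which 117 genes were tested. Of these, 7 rose and 1 fell with edgeR, against 2.4% of all genes called in either direction. The lists too were chosen with earlier results of these data known. The total of 8 was 18 without SNHG1-labelled library 1, and 4 without SNHG1-labelled library 2 or 3 or vector library 1, 2 or 3. Among other transporters and isozymes of glycolysis, 1 of 15 tested genes rose. This was Slc2a6, a glucose transporter family member of lysosomal membranes, at 16.3, 17.5 and 20.35 CPM in the SNHG1-labelled libraries and 8.67, 9.36 and 8.90 CPM in the vector libraries. The groups lay far apart, with a log2 fold change of 1.01 ± 0.11 (SE, edgeR adjusted p = 0.00398). Of 17 tested genes for the entry of pyruvate into mitochondria, 0 rose and 1 fell. This was Pdp1, the phosphatase that opposes the pyruvate dehydrogenase kinases, at 98.55, 93.6 and 91.6 CPM in the SNHG1-labelled libraries and 119.8, 116.5 and 117 CPM in the vector libraries. Its log2 fold change was -0.32 ± 0.05 (SE, edgeR adjusted p = 0.0235). This only call of a fall was lost without SNHG1-labelled library 2 or 3 and without vector library 1, 2 or 3, where 0 list genes were called lower, and also with no filter on low counts. In the same list of 17, the SNHG1-labelled group lay wholly above the vector group in 4 genes and wholly below in 3. Of all genes tested, 11.4% and 12.3% did so. Pcx, pyruvate carboxylase, was higher without overlap but did not pass, at 0.39 ± 0.08 (SE, edgeR adjusted p = 0.0556). DESeq2 called 2 of the 17 and limma-voom 1.

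The pentose phosphate pathway and other branches had 2 rises among 23 tested genes, where 1.54% of all genes tested were called higher. Pgm1, phosphoglucomutase, had a log2 fold change of 0.27 ± 0.05 (SE, edgeR adjusted p = 0.0419), and Shmt2, the mitochondrial serine hydroxymethyltransferase, one of 0.43 ± 0.09 (adjusted p = 0.0492). Both were close to the threshold of 0.05. DESeq2 called 2 of the 23 and limma-voom 1. The SNHG1-labelled group lay wholly above the vector group in 5 of the 23 and wholly below in 3. In the oxygen-sensing machinery beyond the members, 0 of 13 tested genes passed with edgeR, DESeq2 or limma-voom, and 1 had an unadjusted p under 0.05. Of 34 other hypoxia targets tested, 4 rose and 0 fell, against 1.54% and 0.856% of all genes, with a median log2 fold change of 0.15. The SNHG1-labelled group lay wholly above the vector group in 13 and wholly below in 1, against 11.4% and 12.3% of all genes. An unadjusted p under 0.05 was found for 14, in either direction, and DESeq2 called 8 and limma-voom 4. The difference of this list from all genes was not tested. Nos2, the inducible nitric oxide synthase, which inflammatory signals also raise, had 211, 150.4 and 135 CPM in the SNHG1-labelled libraries and 2.19, 1.29 and 2.28 CPM in the vector libraries. That is a log2 fold change of 6.40 ± 0.25 (SE, edgeR adjusted p = 1.11e-05). The stress gene Ier3 rose by 1.07 ± 0.12 (adjusted p = 0.00379) and the transferrin receptor Tfrc by 0.49 ± 0.09 (adjusted p = 0.0294), and Pgm1 was the fourth. Of 18 tested regulators upstream of glycolysis, only Nfkb1, a subunit precursor of NF-kappaB, passed with edgeR. It had 186, 193 and 176 CPM in the SNHG1-labelled libraries and 83.1, 86.15 and 86.6 CPM in the vector libraries, a log2 fold change of 1.12 ± 0.06 (SE, edgeR adjusted p = 3.76e-05). Myc, a known activator of glycolytic genes, was at 0.13 ± 0.08 (adjusted p = 0.415). Rela was at 0.31 ± 0.07 (adjusted p = 0.0614) and Arrdc4 at -0.31 ± 0.07 (adjusted p = 0.0623), both without overlap of the groups. Of the 18 regulators, 9 had an unadjusted p under 0.05, in either direction. The SNHG1-labelled group lay wholly above the vector group in 4 and wholly below in 4, against 11.4% and 12.3% of all genes. DESeq2 called 3 of them and limma-voom 1.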

How the data were processed

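Messenger RNA was sequenced as stranded, poly(A)-selected paired-end libraries, per the labels' protocols. The authors deposited 1 table with raw counts and FPKM values for 57180 gene rows; HISAT2, SAMtools 1.3.1 and StringTie are named per the submitters' processing notes, which list the human build GRCh38 although every identifier is a mouse Ensembl gene. The sources used here name neither the counting step nor the build of the deposited coordinates. The deposited FPKM values were not used for levels, because count and FPKM imply a length of 1 to 6.07 times the transcript length in the tested member rows. The table has no per-sample columns that were left unused.

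Libraries were grouped by their titles. Counts were tested with edgeR 4.0.16 in R 4.3.3 (quasi-likelihood F test, TMM scaling, filterByExpr, group as the only term), with Benjamini-Hochberg adjustment over 14605 genes and a threshold of 0.05. The SE of a log2 fold change is its size divided by the square root of F; errors of CPM are SD. DESeq2 1.42.0, limma-voom (limma 3.58.1), other scalings and filters, removal of GC and length trends (a loess span of 0.3 over the longest protein-coding transcript in GENCODE M21, GRCm38), and leaving out each library were alternatives. Near-identical copies were found with blastn 2.17.0. Sequences are RefSeq promoters of GRCm38.p6.

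The members and pathway lists were chosen with earlier results of these data known. Full values are given for Snhg1, for members with an adjusted p under 0.05, for those with an unadjusted p under 0.05 and a mean of at least 20 counts, and for Hif1a, Vegfa, Hk1, Hk2, Gapdh, Pkm, Ldhb and Egln3. Other members are given by their fold change or range, and list genes where they passed. Myc, Rela, Arrdc4, Pcx, Ptprc, Cd14, Cd68, Csf1r, Adgre1, Lyz2, Rhox5, Col1a2, Col3a1, Pdgfra, Pfkm, Pfkp, Pdk3 and the copies were named after their values were seen. Total counts ran from 15521900 to 21095427 per library.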

Additional observations from a re-analysis of the deposited data

How the results depend on the processing

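All 7 called members kept a positive fold change in every alternative that was run, and no member was called lower in any. The number of members called (7) ran from 0 to 10 when 1 library was left out, the number of all genes called (350) from 123 to 807, and the number of pathway list genes called (8) from 4 to 18. For all genes it was 807, 162 and 176 without SNHG1-labelled library 1, 2 and 3, and 123, 151 and 143 without vector library 1, 2 and 3. DESeq2 called 11 members, 646 genes and 15 list genes. With no filter on low counts, 5 list genes passed. The replicate number as a block gave 2 members (Ldha and Slc16a1), 163 genes and 4 list genes (Pdp1 not among them). Deviations of same-numbered libraries correlated at 0.0248, -0.0428 and -0.039, so no shared deviation by number was seen. With 3 libraries per group this cannot tell whether same-numbered libraries were handled together, and the labels do not say. The other scalings and filters, limma-voom and trend removal gave 5 to 9 members. Adding copies by sequence (9 members) and taking GC content from the longest transcript of any kind (7 members) were chosen after seeing the data, as was the use of the longest protein-coding transcript. The cause of these shifts was not tested.

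Small fold changes turned sign in 7 rows that were never called. On the log2 scale, with 1 library left out, Hk1 ran from -0.15 to 0.084 (without vector library 3), the minor Aldoa row from -0.18 (without SNHG1-labelled library 3) to 0.22, and Pdk2 from -0.020 (without vector library 2) to 0.055. Vegfa ran from -0.12 to 0.046 (without vector library 2), Egln3 from -0.014 (without SNHG1-labelled library 2) to 0.079, P4ha1 from -0.10 to 0.0081 (without SNHG1-labelled library 2) and Bhlhe40 from -0.022 (without SNHG1-labelled library 1) to 0.15. The minor Aldoa row was -0.019 with limma-voom, -0.013 with the replicate block, and -0.14 after trend removal with either transcript choice. After trend removal with the longest protein-coding and with any transcript, Pdk2 was -0.057 and -0.058, and P4ha1 was 0.010 and 0.0025.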
